A study of Mus musculus with 4 samples.

Results

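Malat1, Neat1, Gm42418 and Gm26917 are annotated as long noncoding RNA genes, and they made up 4 of the 32285 genes in the count tables of a spatial transcriptomics study of the mouse ovary. The rows were chosen by gene symbol, because of how their levels ran with the number of unique molecules (UMIs) counted per spot and with the age of the animal. Those 2 measures are therefore given as values without a test. The ovaries came from naturally aged, outbred CD-1 females with no other treatment. The aged group was 15 to 16 months old and the young group 3 to 4 months old, with 4 animals per age and 1 section per animal. Each of 4 capture areas held 1 aged and 1 young section, and sections carry the number of their area here. In this assay a frozen section of 10 µm releases its RNA onto a grid of barcoded spots, and a spot can cover several cells or parts of cells.

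Malat1 is a long RNA that stays in the nucleus and gathers at nuclear speckles, the sites where splicing factors collect. Neat1 is the scaffold of paraspeckles, nuclear bodies that assemble on its long form, while its short form ends in an ordinary poly(A) tail. The ends of Malat1 and of long Neat1 are made by RNase P, which cuts off a tRNA-like piece, and are protected by a triple helix of U-rich and A-rich stretches. In mice, loss of Neat1 leaves some females with a corpus luteum that does not form or function normally, and the corpus luteum is the ovary's main source of progesterone. Gm42418 and Gm26917 are annotations next to each other on chromosome 17, over a stretch that resembles the ribosomal RNA gene. The capture oligonucleotides of the array end in poly(dT).

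All positions are those of GENCODE M21 on mm10. Malat1 lies at chr19:5795690-5802672 and Neat1 at chr19:5824708-5845478, both on the minus strand, with 22035 bases between them. The longest transcript of each is a single exon, of 6983 bases in Malat1 and 20771 in Neat1. Gm42418 at chr17:39846958-39848788 and Gm26917 at chr17:39843013-39846341 are also single exons, on the plus strand and 616 bases apart. The stretches that set these RNAs apart are shown first, with capitals on the U-rich and A-rich runs of Malat1 (chr19:5795937-5796037) and long Neat1 (chr19:5824708-5824770), and on the AATAAA of short Neat1 (chr19:5842307-5842366).
Malat1, before the RNase P cut and into the tRNA-like piece: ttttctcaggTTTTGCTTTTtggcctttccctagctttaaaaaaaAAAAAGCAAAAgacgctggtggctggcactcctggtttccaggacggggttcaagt
Neat1, end of the long transcript: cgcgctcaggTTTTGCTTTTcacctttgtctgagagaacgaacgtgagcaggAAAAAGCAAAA
Neat1, end of the short transcript: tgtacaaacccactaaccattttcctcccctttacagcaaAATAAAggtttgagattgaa

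Both RNAs hold TTTTGCTTTT followed within 60 bases by AAAAAGCAAAA, searched on the transcript's strand only. The first is the reverse complement of part of the second. The pair was searched because it was read off these ends, and of the longest transcripts of 31424 genes it is in 2, Malat1 and Neat1. AAAAAGCAAAA alone is in 237 of them (0.754%) and TTTTGCTTTT alone in 621 (1.98%). The longest run of A is 12 bases in Malat1 and 7 in Neat1. In the rRNA-like pair it is 6 bases in Gm42418 and 4 in Gm26917. The 20 bases richest in A of that pair are in capitals in the next sequences, from chr17:39847147-39847206 and chr17:39845136-39845195.
Gm42418: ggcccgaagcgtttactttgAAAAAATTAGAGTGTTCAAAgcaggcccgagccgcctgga
Gm26917: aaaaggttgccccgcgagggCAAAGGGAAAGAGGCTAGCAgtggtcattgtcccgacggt

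GC content was 42.5% in Malat1, 47.3% in Neat1, 60.2% in Gm42418 and 69.1% in Gm26917. All 1831 bases of Gm42418 lie within an rRNA annotation on the other strand (chr17:39846353-39848827), and RefSeq names this place Rn18s-rs5, a pseudogene of the 18S ribosomal RNA. The annotation AY036118, of 923 bases, lies inside Gm42418 on the other strand and shares 874 stretches of 50 bases with it. Whether the counting used strand is not given in the sources used here, so reads of Gm42418 and of these overlapping annotations cannot be told apart. Gm26917 has 0 bases in common with the rRNA annotation and with AY036118, and 0 other genes share a stretch of 50 bases with it. It is called rRNA-like here only for its place beside Gm42418.

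Together the sections held 1625 aged and 2566 young spots. Aged sections had 2777948 to 9506517 UMIs each and young sections 9702600 to 21619232. Median UMIs per spot were 8779 to 14928 in aged and 14989 to 28120 in young sections, and mitochondrially encoded genes took 1.31 to 2.96% of UMIs in aged and 0.597 to 1.88% in young sections. The summed level of 15 oocyte genes was 42.4, 48.9, 660 and 40.8 CPM (UMIs scaled to a total of 1000000 per section) in aged sections 1 to 4. It was 670, 212, 42.2 and 261 CPM in young sections 1 to 4, so that area 3 ran against the other areas. The age differences of the members and their ratios between shallow and deep spots are therefore also given without area 3.

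Malat1 averaged 704 ± 332 CPM in aged and 365 ± 205 CPM in young sections (SD, n = 4 each). Single aged sections had 917, 1027, 571 and 301 CPM, and young sections had 539, 199, 545 and 177 CPM. The aged section was the higher one in 4 of 4 areas, by 1.70, 5.16, 1.05 and 1.71 times, but the ranges of the age groups overlapped. On the log2 scale of the edgeR fit, which scales sections by TMM, the difference was 1.03 with a standard error (SE) of 0.49, and 1.36 without area 3. With 1 section left out at a time it ran from 0.70 without aged section 2 to 1.3 without young section 1. In bulk sums such as these, fewer cells of a type and less RNA per cell cannot be told apart.

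Neat1 averaged 454 ± 295 CPM in aged and 487 ± 412 CPM in young sections. Aged sections had 259, 159, 605 and 791 CPM and young sections 364, 146, 1087 and 349 CPM. The highest and the lowest section were both young, and the aged section was higher in 2 of 4 areas. The log2 difference was -0.04 (SE 0.59) and turned to 0.53 without area 3. It was -0.51 without aged section 4 and 0.62 without young section 3.

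Gm42418 averaged 428 ± 200 CPM in aged and 257 ± 80.8 CPM in young sections. Values were 517, 289, 667 and 239 CPM in aged and 315, 137, 286 and 289 CPM in young sections. Here the aged section was higher in 3 of 4 areas, again with overlapping ranges, and the log2 difference was 0.73 (SE 0.32), or 0.54 without area 3, and 0.53 to 0.92 with 1 section left out at a time.

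Gm26917, the sparsest of the 4, averaged 42.5 ± 29.6 CPM in aged and 36.5 ± 26.5 CPM in young sections. Aged sections had 23.3, 36.3, 86.0 and 24.5 CPM and young sections 29.0, 19.5, 21.7 and 75.7 CPM. In each age 1 section stood well above the other 3, aged section 3 and young section 4. The log2 difference of 0.17 (SE 0.50) turned to -0.46 without area 3 and to -0.26 without aged section 3, and was 0.80 without young section 4. In the same fit edgeR called 0 of 14044 genes tested (0%) at an adjusted p under 0.05. At an unadjusted p under 0.05 there were 392 genes, and DESeq2 called 5.

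**Figure D1:**
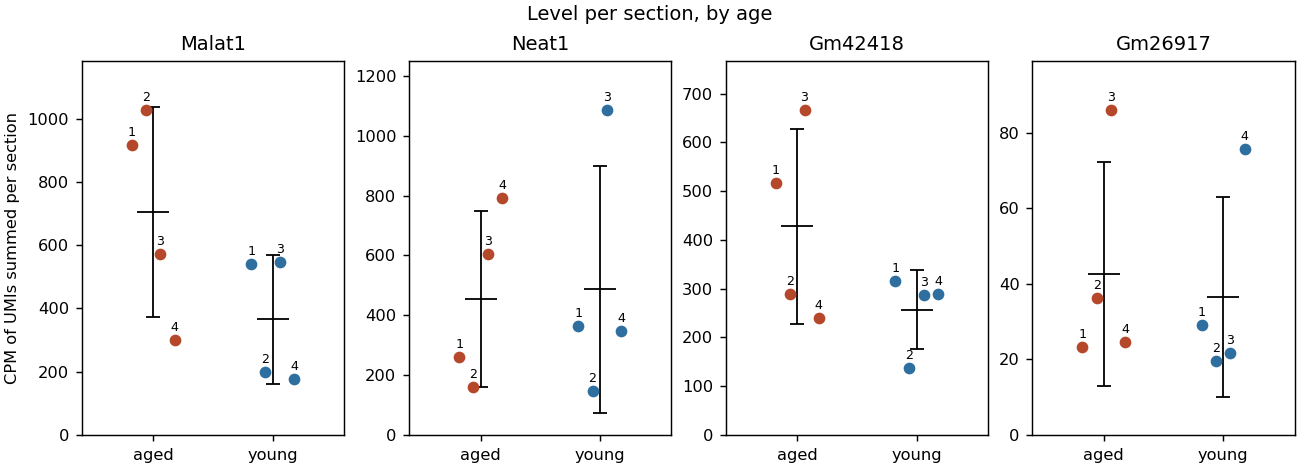
CPM of UMIs summed over each section (y axis, from 0) for 4 genes, aged sections left and young sections right. Points are sections with the number of their capture area, bars are the mean and SD (n = 4), and the ranges of the ages overlap for each gene, as between aged section 4 at 301 CPM and young section 1 at 539 CPM for Malat1.

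At least 1 UMI of Malat1 was found in 83.8 to 96.1% of the spots of a section, of Neat1 in 79.3 to 97.6% and of Gm42418 in 84.2 to 97.3%. Gm26917 had a UMI in 29.5 to 72.8% of spots. The mean level over the 8 sections was 535 CPM for Malat1, 470 for Neat1, 342 for Gm42418 and 39.5 for Gm26917. Divided by the length of the longest transcript, it was 187 CPM per kilobase for Gm42418, 76.6 for Malat1, 22.6 for Neat1 and 11.9 for Gm26917. UMIs count molecules and not bases, so the divided values do not rank the molecules captured. For Neat1 the length is that of the long form, 20771 bases, while the short form has 3004.

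Within sections, Malat1 and Gm42418 took a larger share of the UMIs in the shallowest 25% of spots than in the deepest 25%, while Neat1 mostly did not. In the 25% of spots with the fewest UMIs, Malat1 reached 2819, 9806, 2301 and 888 CPM in aged sections 1 to 4. In the 25% with the most UMIs it was at 333, 311, 330 and 181 CPM. The ratio of the shallowest to the deepest 25% was 13.0 ± 12.5 in aged and 2.11 ± 1.73 in young sections (SD, n = 4 each). It ran from 4.89 to 31.5 over the aged and from 1.10 to 4.70 over the young sections. Without area 3 the means were 15.0 in aged and 1.25 in young sections. Spot by spot, Spearman's rho between the Malat1 level and UMIs ran from -0.54 to -0.14 over aged sections. Over young sections it ran from -0.13 to 0.11, and it was above 0 in young sections 1 and 4. The 25% groups covered unlike depths in the 2 ages. The median spot of the shallowest 25% had 2618.5 to 6398 UMIs in aged and 4480 to 17435 in young sections. In young section 3, where the Malat1 ratio was 4.70, that median was 4480. The part of this depth difference in the ratios of the members was not tested.

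For Gm42418 the same ratio was 7.52 ± 1.12 in aged and 2.87 ± 2.11 in young sections. The aged sections ran from 6.31 to 8.94 and the young sections from 1.52 to 5.99. How often the ages lie apart in this ratio over all genes was not examined. Without area 3 the means were 7.92 in aged and 1.83 in young sections. Gm26917 had ratios of 3.28 ± 0.970 in aged and 1.62 ± 0.505 in young sections. Neat1 had ratios of 1.32 ± 0.671 in aged and 1.01 ± 0.269 in young sections, and only 2 aged and 1 young section were above 1. Without area 3, Gm26917 had means of 3.58 in aged and 1.39 in young sections and Neat1 means of 1.46 in aged and 0.880 in young sections. Spearman's rho of level with UMIs over spots ran from -0.70 to -0.30 over aged and from -0.26 to -0.08 over young sections for Gm42418. For Gm26917 it was near 0 or above, at -0.002 to 0.17 in aged and -0.02 to 0.16 in young sections. For Neat1 it ran from -0.20 to 0.31 in aged and from -0.13 to 0.09 in young sections.

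The share of mitochondrially encoded genes moved with these levels from spot to spot. Spearman's rho between that share and the Malat1 level ran from 0.26 to 0.72 over aged and from 0.05 to 0.45 over young sections. For Gm42418 it ran from 0.33 to 0.77 over aged and from 0.24 to 0.42 over young sections. For Neat1 it ran from -0.38 to 0.22 in aged and from -0.37 to 0.08 in young sections. Spots of 1 section share a library, so these are descriptions, and the part of depth or of the mitochondrial share in the levels was not tested.

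**Figure D2:**
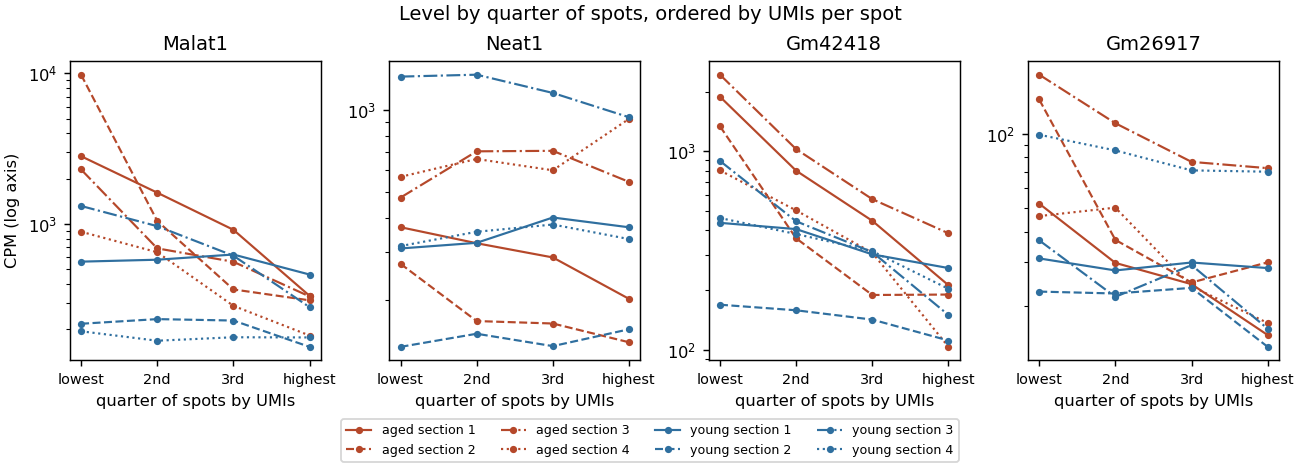
CPM (y axis, log scale) in 4 equal groups of spots ordered by UMIs per spot, lowest to highest, 1 line per section, aged in red and young in blue. Malat1 and Gm42418 are lower in the deepest than in the shallowest group in all 8 sections, by 31.5 times for Malat1 in aged section 2, while the lines of Neat1 cross.

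In 6 of 8 sections, 10.3 to 69.2% of the Malat1 UMIs came from 1 patch of neighbouring spots. Spots of at least 3000 CPM and 5 UMIs of Malat1, limits set after the maps were seen, formed a patch of 8 or more neighbours in 6 of 8 sections. The largest lay in aged section 2, where 83 of 653 spots held 69.2% of the section's Malat1 UMIs and 4.22% of all its UMIs. Malat1 was at 16836 CPM in this patch and at 331 CPM in the rest of the section. The median spot there had 77 Malat1 UMIs, against 3 outside. The limit of 5 UMIs already set each patch spot above that outside median, so a higher count in the patch was built in.

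The other patches held 32, 8 and 9 spots in aged sections 1, 3 and 4. In young sections 1 and 3 they held 17 and 30 spots, with 19.2 and 38.5% of the Malat1 UMIs. Young section 2 had 1 such spot and young section 4 had 0. Outside the patch, Malat1 was at 720, 331, 516 and 256 CPM in aged sections 1 to 4 and at 444, 196 and 347 CPM in young sections 1 to 3. Young section 4, which had none, stood at 177 CPM.

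Patch spots were shallow and rich in mitochondrially encoded transcripts. In the 6 sections with a patch, the median spot of the patch had 2142 to 10519 UMIs, against 8949 to 19164 in the rest of the section. Mitochondrially encoded genes took 2.56 to 6.27% of UMIs in the patches and 1.05 to 2.94% in the rest. Of 138 genes with at least 20 UMIs in each patch, those with the largest lowest ratio of patch to rest were, after Malat1 itself, Gm42418 and 8 mitochondrially encoded genes. Gm42418 was 3.24 to 7.13 times as high in the patch, and mt-Co2, a subunit of cytochrome c oxidase, 2.51 to 7.13 times. Neat1 was higher in the patch than in the rest in 5 of these 6 sections. It was at 394, 274, 678 and 2028 CPM in the patches of aged sections 1 to 4, against 253, 154, 605 and 781 CPM in the rest. In young section 1 it was at 953 CPM in the patch, against 352 CPM, and in young section 3 it was lower, at 804 CPM, against 1096 CPM. The patches were chosen by Malat1 and each is 1 place in 1 section, so none of these values has a test.

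**Figure D3:**
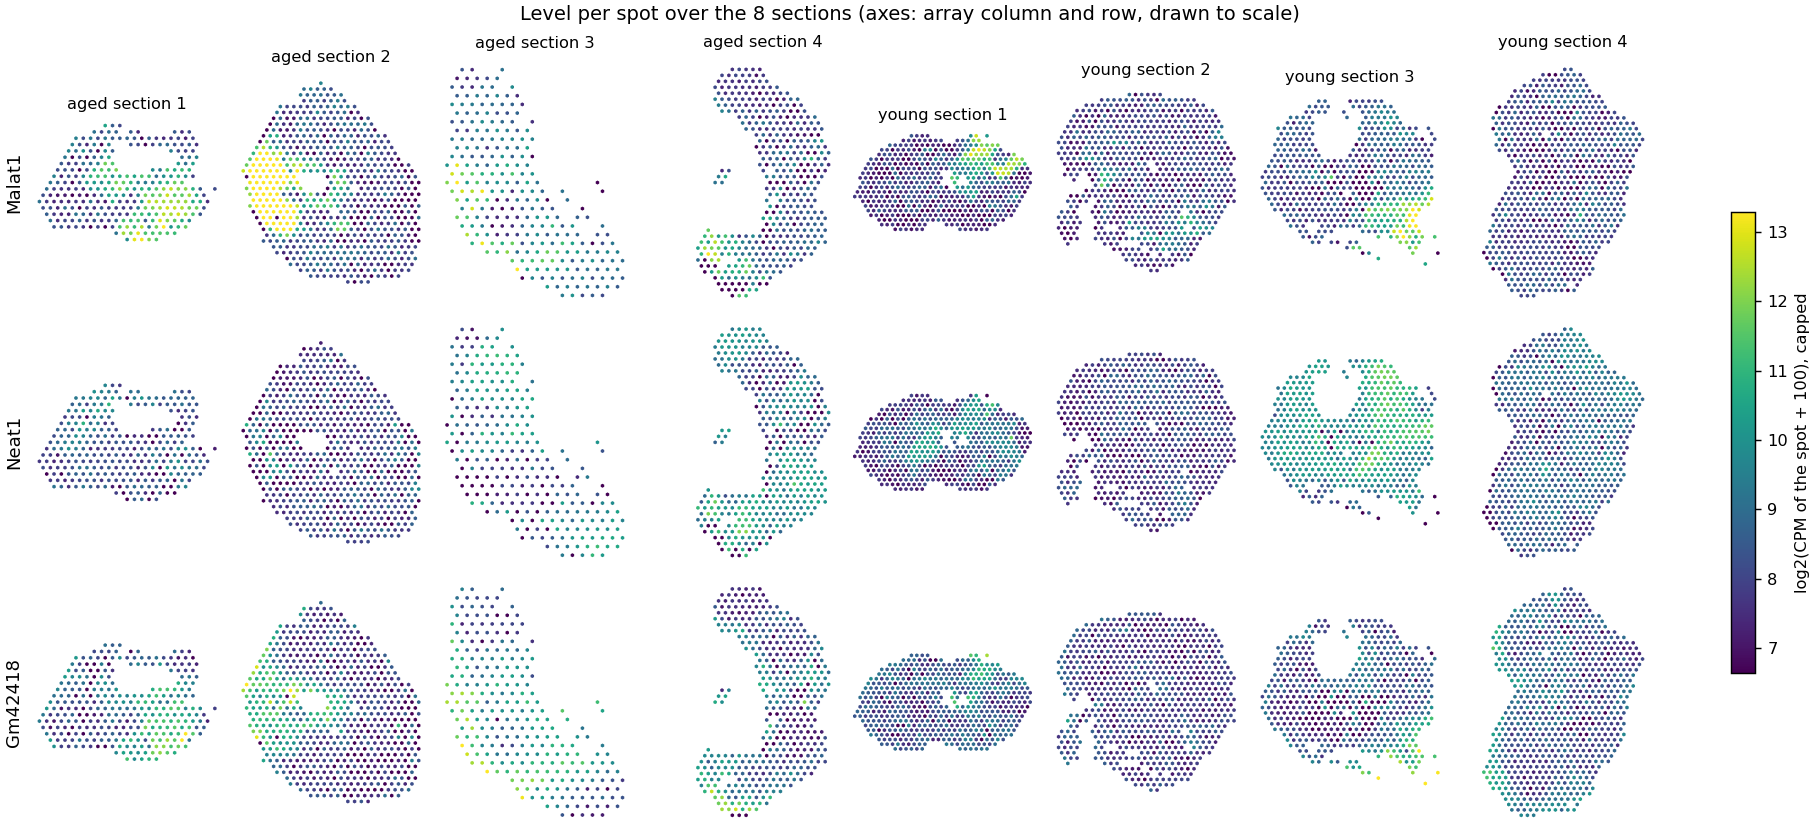
Spots of the 8 sections at their array column and row, aged sections left and young sections right, coloured by log2(CPM + 100) of the spot for Malat1, Neat1 and Gm42418, with the colour scale capped. The 83-spot Malat1 patch is at the left of aged section 2, Gm42418 is raised over the same area, and Neat1 is spread over most of young section 3.

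Over spots thinned to 5000 UMIs each, which left out 280 aged and 110 young spots, neighbouring spots resembled each other in Malat1, Gm42418 and Neat1. Moran's I, a measure of such likeness that is near 0 for a scattered gene, averaged 0.391 for Malat1, 0.350 for Gm42418 and 0.305 for Neat1 over 8 sections. The median of 7179 genes was 0.0174, and these 3 genes ranked 101, 125 and 160. Gm26917 had 0.0751 and ranked 991. The thinning left out 122 spots of aged section 2, and the median spot of its Malat1 patch had 3721 UMIs, so most of that patch was left out. Thinned to 2000 UMIs, Moran's I of Malat1 in that section was 0.655, against 0.344 at 5000. In young section 4 it was -0.002 at 2000, against 0.102 at 5000. The mean for Malat1 over 8 sections was 0.361 at 2000.

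The genes whose levels ran most like each member over these spots differed between the members. For Malat1 the 5 most alike genes were all mitochondrially encoded, with mt-Nd2 first at a mean Pearson r of 0.394 over 8 sections. For Gm42418 they were also mitochondrially encoded, with mt-Co3 first at 0.419. For Neat1 they were Sfrp4, a secreted Wnt antagonist, at 0.356, the glutathione peroxidase Gpx3 at 0.354, Star at 0.341, Cyp11a1 at 0.331 and Aplp2 at 0.311. Star carries cholesterol into mitochondria and Cyp11a1 makes the first steroid from it. Sfrp4, Star and Cyp11a1 are also on the corpus luteum list used below. This likeness and the Neat1 level in spots high for that list are therefore not separate observations. The best r for Gm26917 was 0.165, which in counts this sparse is no finding. Malat1 and Gm42418 had a mean r of 0.315 with each other, Malat1 and Neat1 0.122, and Neat1 and Gm42418 -0.099.

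Where in the tissue each RNA was high or low was tested with fixed gene lists that hold none of the 4 members. The lists were chosen with earlier results of these data known. In every section the tenth of spots with the highest mean level of a list was compared with the other spots, with the section as a block (edgeR, 8 sections, p adjusted over all genes tested). Such a class is the top of a range and not a cell type, and for each list 79 to 374 of the 4191 spots lay within 0.1 SD of the limit.

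Malat1 and Neat1 were both low where granulosa genes were high. Granulosa cells surround the oocyte in growing follicles and divide often. In spots highest in granulosa genes Malat1 was at 181, 635, 433 and 117 CPM in aged sections 1 to 4, against 1056, 1074, 592 and 323 CPM in the other spots. In young sections 1 to 4 it was at 148, 84.6, 234 and 110 CPM, against 584, 213, 580 and 184 CPM. It was lower in 8 of 8 sections, with a log2 fold change of -1.36 (SE 0.20, adjusted p = 0.000104). The other spots hold most of the Malat1 patch spots. In aged section 2 the granulosa-high level of 635 CPM was above the 331 CPM found outside the patch. In the other sections with a patch it was below the level outside the patch.

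Neat1 was at 123, 123, 160 and 169 CPM in the granulosa-high spots of aged sections 1 to 4, against 285, 164, 672 and 865 CPM in the other spots. The levels in young sections 1 to 4 were 74.2, 49.9, 921 and 176 CPM, against 398, 158, 1105 and 368 CPM. Young section 3, the section with the most Neat1, kept a high level in these spots too, yet the direction was the same in 8 of 8 sections. The log2 fold change was -1.45 (SE 0.21, adjusted p = 0.000118). In this comparison 44.4% of 11500 genes tested were called and 22.8% were lower, so a call as such was common. Gm42418 (-0.11, adjusted p = 0.665) and Gm26917 (0.21, adjusted p = 0.430) were not called.

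The granulosa-high spots were deeper than the rest in 7 of 8 sections, with a median of 19662 UMIs, against 14130 in the other spots. Against other spots matched to them by UMIs, the log2 fold change was -1.35 for Malat1 (adjusted p = 7.14e-05) and -1.47 for Neat1 (adjusted p = 7.29e-05), as large as without matching. The mitochondrial share was higher in the granulosa-high spots in 4 of 8 sections.

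Genes for the proteins that gather on these RNAs went the other way in the same spots. Of 22 paraspeckle protein genes tested, 18 rose and 0 fell in granulosa-high spots, where 21.5% of all genes rose. Their median log2 fold change was 0.39, against 0.0048 over all genes tested. Sfpq, a core paraspeckle protein, had 232 ± 66.9 CPM in granulosa-high and 124 ± 39.3 CPM in other spots (SD, n = 8 sections; log2 0.87, adjusted p = 4.90e-06). Its partners Nono (log2 0.45, adjusted p = 0.000318) and Pspc1 (1.10, adjusted p = 8.31e-05) rose as well, each in 8 of 8 sections. Fam98a, listed as a paraspeckle protein, had a log2 fold change of 1.33 (adjusted p = 5.74e-06).

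Of 29 nuclear speckle and splicing factor genes, 18 rose and 0 fell, with a median log2 fold change of 0.29. Srsf7 (log2 0.71, adjusted p = 1.92e-05) and U2af1 (0.69, adjusted p = 5.25e-05) had the smallest p. The splicing factors Srsf1 (0.43, adjusted p = 0.00646) and Srsf2 (0.33, adjusted p = 0.00946) rose too. Son, a core speckle protein, was not called, with 181 ± 54.6 CPM in granulosa-high and 172 ± 31.9 CPM in other spots.

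Of 18 genes for the processing and stability of Malat1 and Neat1, 5 rose and 1 fell, a share of rises near the 21.5% of all genes. The one that fell was Rpp25, a subunit of RNase P, at 26.0 ± 16.5 CPM in granulosa-high and 85.6 ± 40.1 CPM in other spots (log2 -1.87, adjusted p = 1.17e-05, lower in 8 of 8 sections). Mtrex, the helicase of the nuclear exosome, rose by 0.46 on the log2 scale (adjusted p = 0.00162). Among 22 other long noncoding RNAs tested, 9 rose and 0 fell, and none of these others went the way of Malat1 and Neat1 past the test. The imprinted noncoding RNAs Rian (log2 2.51, adjusted p = 1.49e-05) and Meg3 (1.42, adjusted p = 0.000105) led these. Of 32 nucleolus and ribosomal RNA synthesis genes, 15 rose and 2 fell, with Npm1 at log2 0.87 (adjusted p = 0.000167) and Taf1d at 0.61 (adjusted p = 0.000477).

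Oocyte-high spots shared 23.6% of their number with the granulosa-high ones, and Neat1 was low there as well. It was at 290, 184, 129 and 326 CPM in the oocyte-high spots of aged sections 1 to 4, against 257, 158, 649 and 822 CPM in the other spots. In young sections 1 to 4 it was at 113, 96.4, 790 and 196 CPM, against 394, 152, 1109 and 362 CPM. It was lower in 6 of 8 sections and a little higher in aged sections 1 and 2. The log2 fold change was -0.90 (SE 0.20, adjusted p = 0.00441), where 18.8% of 11526 genes were called and 10.1% fell. In these spots the oocyte list itself was at 255, 588 and 379 CPM in aged sections 1, 2 and 4 and at 424 CPM in young section 3. In the other sections it was at 1648 to 4434 CPM. In the sections with the low list levels the class therefore rests on few oocyte UMIs.

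Gm42418 was higher in oocyte-high spots in 8 of 8 sections, with a median of 458 CPM, against 274 CPM in the other spots (log2 0.61, SE 0.13, adjusted p = 0.00311). In this comparison 8.71% of genes rose. Oocyte-high spots were the shallower ones in 7 of 8 sections, and against spots matched by UMIs the log2 value was 0.31 (adjusted p = 0.0566), which ended the call. Malat1 was not called (log2 0.06, SE 0.31, adjusted p = 0.936). It was at 3982 CPM in the oocyte-high spots of aged section 2, against 827 CPM in its other spots, and 24 of the 83 patch spots were among these. Gm26917 was not called either (0.44, adjusted p = 0.0940), but was without young section 4 (0.61, adjusted p = 0.0334).

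Of the paraspeckle protein genes, 8 of 22 rose and 0 fell in oocyte-high spots, where 8.71% of all genes rose, led by Hnrnpa1 (log2 0.49, adjusted p = 0.00135) and Fam98a (0.65, adjusted p = 0.00182). Pspc1 (0.56, adjusted p = 0.00687) and Nono (0.30, adjusted p = 0.0231) were among the 8, and Sfpq was not called (0.18, adjusted p = 0.260). Of the speckle genes, 4 of 29 rose, nearer that share, and 0 fell, with Srsf7 at 0.34 (adjusted p = 0.00717) and Srsf3 at 0.30 (adjusted p = 0.0258). Rpp25 fell here too, by 1.13 on the log2 scale (adjusted p = 0.000839). In the nucleolus list 9 of 32 rose and 1 fell, with Taf1a, part of the RNA polymerase I machinery, at 0.71 (adjusted p = 0.00164).

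Where corpus luteum genes were high, Neat1 was high and both rRNA-like RNAs were low. Neat1 was at 228, 192, 1124 and 930 CPM in the corpus luteum-high spots of aged sections 1 to 4, against 266, 155, 526 and 748 CPM in the other spots. The levels in young sections 1 to 4 were 793, 198, 1038 and 513 CPM, against 292, 139, 1098 and 328 CPM. It was higher in 6 of 8 sections, most in young section 1 (2.71 times) and aged section 3 (2.14 times), and a little lower in aged section 1 and young section 3. The log2 fold change was 0.65 (SE 0.18, adjusted p = 0.0168), where 28.2% of 11407 genes were called and 14.1% rose.

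Gm42418 was at 152, 128, 326 and 109 CPM in the corpus luteum-high spots of aged sections 1 to 4, against 595, 311, 719 and 280 CPM in the other spots. In young sections 1 to 4 it was at 280, 82.4, 89.5 and 166 CPM, against 321, 145, 331 and 304 CPM. It was lower in 8 of 8 sections (log2 -1.04, SE 0.19, adjusted p = 0.00178), where 14.1% of genes fell. Gm26917 was also lower in 8 of 8 sections, with a median of 18.0 CPM, against 28.7 CPM in the other spots (log2 -0.54, SE 0.15, adjusted p = 0.0188). That call ended without area 3 (-0.37, adjusted p = 0.0790).

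These spots were the deeper ones in 8 of 8 sections, with a median of 28675 UMIs, against 13884 in the other spots, and their mitochondrial share was higher in 2 of 8. Against spots matched by UMIs, Neat1 was at log2 0.63 (adjusted p = 0.00973) and Gm42418 at -0.55 (adjusted p = 0.0117). Gm26917 was at -0.39 and no longer called (adjusted p = 0.172).

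Malat1 had no common direction in corpus luteum-high spots (log2 -0.22, SE 0.40, adjusted p = 0.712). It was at 222, 939, 550 and 214 CPM in these spots of aged sections 1 to 4, against 1065, 1040, 575 and 328 CPM in the other spots. The levels in young sections 1 to 4 were 1544, 182, 153 and 219 CPM, against 370, 202, 635 and 171 CPM. The ratio was 4.18 in young section 1, where 7 of the 17 patch spots were corpus luteum-high, and 0.241 in young section 3.

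Of 22 paraspeckle protein genes, 1 rose and 3 fell in corpus luteum-high spots, where 14.1% of all genes fell, with Hnrnpa1 at log2 -0.66 (adjusted p = 0.00298) and Fam98a at -0.47 (adjusted p = 0.00944). Sfpq, with 118 ± 37.0 CPM in these and 139 ± 45.1 CPM in other spots, was not called (adjusted p = 0.521). Of 29 speckle genes 0 rose and 3 fell, with Srsf7 at -0.49 (adjusted p = 0.00266) and Acin1 at -0.45 (adjusted p = 0.0116). Neither list fell more often than all genes did. Other long noncoding RNAs fell in 9 of 21 cases and rose in 1, with Snhg17 at -0.90 (adjusted p = 0.000492) and Epb41l4aos at -0.64 (adjusted p = 0.000993), so Neat1 rose where most called ones fell. Of 32 nucleolus genes 1 rose and 11 fell. Polr1b, a subunit of RNA polymerase I, fell by 0.88 on the log2 scale (adjusted p = 0.00282), and Polr2l, a small subunit shared by the RNA polymerases, rose by 0.80 (adjusted p = 0.00231).

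**Figure D4:**
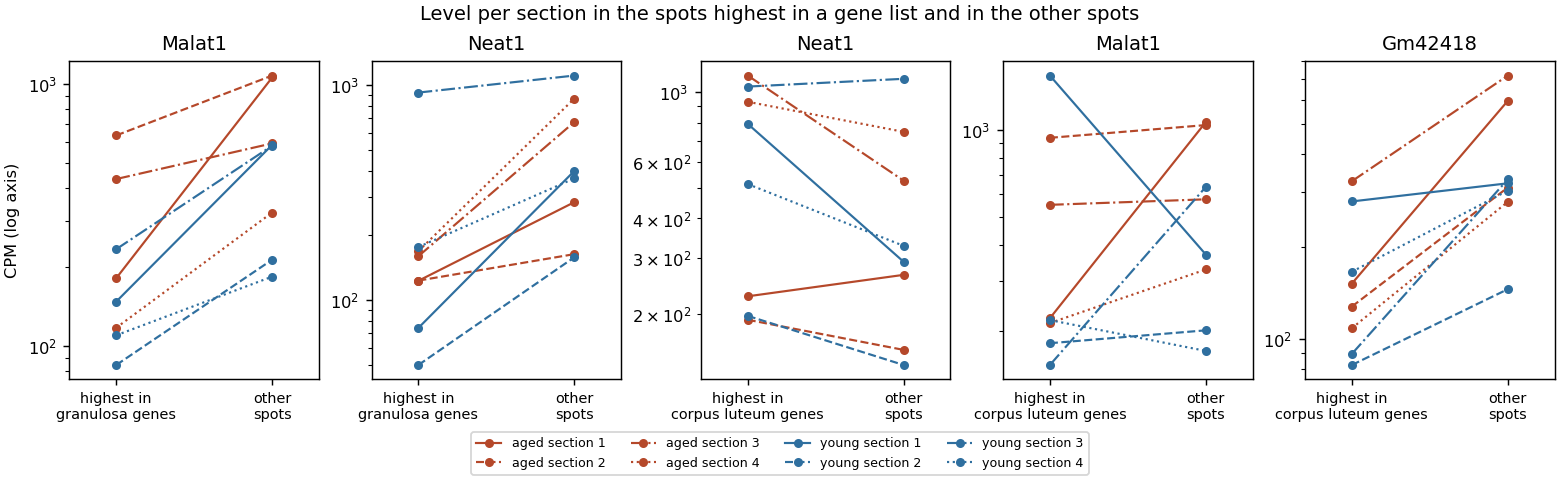
CPM (y axis, log scale) of Malat1, Neat1 and Gm42418 in the spots highest in granulosa or corpus luteum genes (left) and in the other spots (right), 1 line per section, aged in red and young in blue. All 8 lines go up to the other spots for Malat1 and Neat1 in the granulosa panels and for Gm42418 in the corpus luteum panel, while Malat1 in young section 1 drops from 1544 CPM in corpus luteum-high to 370 CPM in other spots.

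Malat1 and Neat1 were low where stroma and smooth muscle genes were high. In stroma-high spots Malat1 ranged from 111 to 734 CPM with a median of 257, against 180 to 1079 CPM with a median of 574 in the other spots (log2 -0.90, SE 0.16, adjusted p = 0.000391, lower in 8 of 8 sections). Neat1 ranged from 124 to 787 CPM with a median of 266, against 148 to 1112 CPM with a median of 370 (log2 -0.61, SE 0.12, adjusted p = 0.00107, lower in 7 of 8). In this comparison 26.5% of 11221 genes were called, 12.9% as higher and 13.6% as lower. The other spots hold most of the Malat1 patch spots. Outside the patches Malat1 was at 720 and 331 CPM in aged sections 1 and 2, against 734 and 499 CPM in their stroma-high spots. In aged sections 3 and 4 and young sections 1 and 3 the stroma-high level was the lower one. The part of the patches in the Malat1 fold changes was not tested.

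In smooth muscle-high spots, which shared 37.9% of their number with the stroma-high ones, Malat1 had a median of 195 CPM, against 566 CPM in the other spots (log2 -0.75, SE 0.18, adjusted p = 0.00358, lower in 7 of 8 sections). Neat1 had a median of 259 CPM, against 364 CPM (log2 -0.51, SE 0.10, adjusted p = 0.000603, lower in 8 of 8). Of 11251 genes 25.5% were called, 13% as higher and 12.5% as lower. In aged sections 1 and 2 Malat1 was at 949 and 791 CPM in smooth muscle-high spots, above the 720 and 331 CPM outside the patches. In aged sections 3 and 4 and young sections 1 and 3 it was below the level outside the patch. Stroma-high and smooth muscle-high spots were shallower than the rest, in 7 of 8 sections for stroma and in 8 of 8 for smooth muscle. Gm42418 and Gm26917 were called in neither comparison, but without young section 1 Gm42418 was called in smooth muscle-high spots (0.28, adjusted p = 0.0472).

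Of 22 paraspeckle protein genes 0 rose and 2 fell in stroma-high spots, fewer than the 13.6% of all genes that fell, Hnrnpk at log2 -0.21 (adjusted p = 0.0203) and Rbm3 at -0.23 (adjusted p = 0.0355). In smooth muscle-high spots 0 rose and the 1 of 22 that fell was Sfpq, by 0.20 (adjusted p = 0.0463), where 12.5% of all genes fell. Rpp25 was lower in 8 of 8 sections in both, at log2 -1.35 in stroma-high (adjusted p = 1.24e-06) and -1.39 in smooth muscle-high spots (adjusted p = 2.41e-07). Among other long noncoding RNAs 9 of 21 rose and 1 fell in stroma-high spots, where 12.9% of all genes rose, with H19 at 1.16 (adjusted p = 0.000759) and Xist at 0.41 (adjusted p = 0.000775). In smooth muscle-high spots 6 of 22 rose, against 13% of all genes, and 0 fell, with Airn at 1.10 (adjusted p = 0.000676) and Snhg12 at 0.35 (adjusted p = 0.00456).

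Gm42418 was high at the surface of the ovary. In spots highest in surface epithelium genes it was at 513, 480, 912 and 504 CPM in aged sections 1 to 4, against 518, 269, 645 and 212 CPM in the other spots. In young sections 1 to 4 it was at 336, 211, 562 and 460 CPM, against 312, 129, 258 and 266 CPM. It was higher in 7 of 8 sections, with aged section 1 level (log2 0.64, SE 0.14, adjusted p = 0.00500), where 15.1% of 11573 genes were called, 7.36% as higher and 7.69% as lower.

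Of these surface epithelium-high spots, 62.3% lay on the rim. The rim is the 1010 spots with fewer than 6 neighbours that have counts in their section. On the rim Gm42418 was at 527, 428, 646 and 349 CPM in aged sections 1 to 4, against 513, 261, 676 and 199 CPM in the interior. The levels in young sections 1 to 4 were 401, 181, 452 and 438 CPM, against 283, 121, 218 and 261 CPM. It was higher in 7 of 8 sections, including 4 of 4 young ones (log2 0.53, SE 0.11, adjusted p = 0.0147), where 3.35% of 12119 genes were called and 2.02% rose.

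The mitochondrial share was higher on the rim in 8 of 8 sections, with a median of 1.96%, against 1.18% in the interior, and in surface epithelium-high spots in 6 of 8. Its part in the level of Gm42418 was not tested. Malat1 and Neat1 were not called on the rim (log2 -0.39 and -0.26, adjusted p = 0.113 and 0.103) or in surface epithelium-high spots (-0.62 and -0.42, adjusted p = 0.114 and 0.111). Against spots matched by UMIs, the adjusted p of Neat1 was 0.0408 on the rim and 0.0436 in surface epithelium-high spots. Without the filter on low counts, which raised the number of genes tested to 22697, Malat1 was called on the rim (-0.44, adjusted p = 9.26e-06) and in surface epithelium-high spots (-0.72, adjusted p = 0.00705). The adjusted p of Neat1 was 0.0215 on the rim without aged section 3 and 0.0372 in surface epithelium-high spots without aged section 1. Gm26917 was called in neither (adjusted p = 0.262 on the rim and 0.211 in surface epithelium-high spots), but in surface epithelium-high spots without aged section 3 its adjusted p was 0.0416. On the rim 0 of 23 paraspeckle protein genes, 0 of 29 speckle genes and 0 of 32 nucleolus genes rose or fell, and 2 of 24 other long noncoding RNAs rose, Snhg8 (0.29, adjusted p = 0.0211) and Xist (0.28, adjusted p = 0.0304). In surface epithelium-high spots 1 of 23 paraspeckle protein genes fell, Smarca4 (-0.26, adjusted p = 0.0495).

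In macrophage-high spots none of the 4 members was called, with log2 values of 0.04 for Malat1, 0.07 for Neat1, 0.16 for Gm42418 and -0.25 for Gm26917 (adjusted p = 0.943, 0.805, 0.638 and 0.292), where 7.11% of 11321 genes were called, 4.22% as higher and 2.89% as lower. Malat1 was at 202 to 2050 CPM over the sections, against 172 to 1048 CPM in the other spots. Fam98a (log2 -0.58, adjusted p = 0.00667) was the 1 of 22 paraspeckle protein genes that fell.

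**Figure D5:**
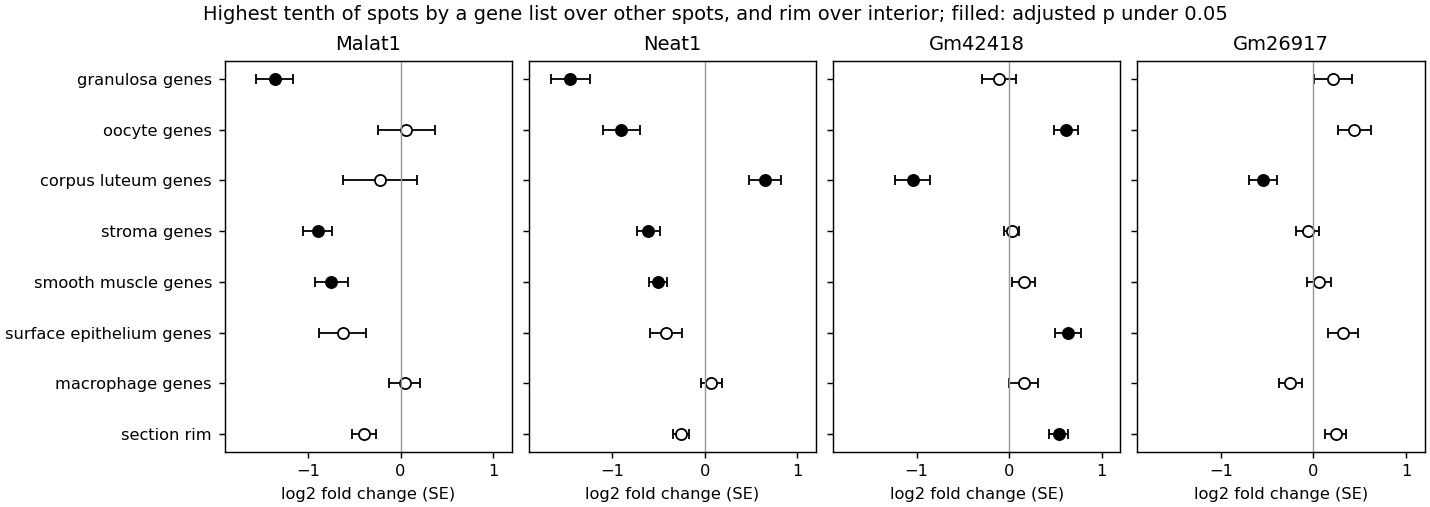
Log2 fold change with its SE (x axis) of the 4 genes in the tenth of spots highest in each gene list over the other spots, and on the rim over the interior (rows), from edgeR with section as a block. Filled points passed an adjusted p of 0.05: Malat1 and Neat1 lie left of 0 for granulosa, stroma and smooth muscle genes, and Neat1 and Gm42418 lie on opposite sides for corpus luteum genes.

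Some genes beside Malat1 and Neat1 on chromosome 19 were also lower in granulosa-high spots. Within 50 kb of either, the genes reported here besides the pair are Ltbp3, Frmd8os, Frmd8, Slc25a45 and Tigd3. In granulosa-high spots Frmd8 (log2 -0.64, adjusted p = 0.000405), Ltbp3 (-0.45, adjusted p = 0.00348) and Slc25a45 (-1.15, adjusted p = 0.000130) fell. Of all genes tested, 22.8% fell there. In oocyte-high spots Frmd8 (-0.37, adjusted p = 0.0267), Ltbp3 (-0.34, adjusted p = 0.0370) and Slc25a45 (-0.57, adjusted p = 0.0394) fell too. Of all genes tested, 10.1% fell there. Calls this common are not read as a trait of the locus. In stroma-high, smooth muscle-high and corpus luteum-high spots none of these 3 was called. In macrophage-high spots Frmd8 rose (0.41, adjusted p = 0.0175), where 4.22% of all genes rose. Frmd8os passed the filter on low counts only in the comparison of ages and Tigd3 in none.

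Between the ages none of the genes in these lists was called. The paraspeckle protein genes had a median log2 difference of 0.04, against 0.01 over all genes tested. Sfpq averaged 155 ± 54.2 CPM in aged and 118 ± 23.1 CPM in young sections (SD, n = 4 each; log2 0.36, SE 0.23). AY036118, which overlaps Gm42418 on the other strand, averaged 1.58 ± 0.595 CPM in aged and 0.932 ± 0.411 CPM in young sections. Lars2, listed here with the rRNA-like annotations, averaged 40.7 ± 21.2 CPM in aged and 29.6 ± 4.26 CPM in young sections. Within sections it was called only in granulosa-high spots, where it fell by 0.36 on the log2 scale (adjusted p = 0.0237).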

How the data were processed

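Raw UMI counts per gene and spot were read from the deposited tables, which hold whole numbers with no normalization. The deposited position tables hold array and pixel coordinates (other units), which gave neighbours and sides. Space Ranger 1.2.1 and mm10 are named in the submitters' processing notes. No source used here gives the annotation, the filters or whether strand was used. Of the spots marked as over tissue, 10 to 32 per area had no column in the count tables and were not used. A spot beside one of them therefore counts as rim. Each area was split where its middle 60% had the widest empty band, and the labelled side gave the age, with small pixel rows taken as top and small columns as left. Barcodes mark array positions, so 1358 of 2204 distinct barcodes occur in at least 2 areas.

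CPM are UMIs over the total of all genes. Counts were summed per section, or per section and class of spots, and tested with edgeR 4.0.16 (limma 3.58.1, R 4.3.3; quasi-likelihood, TMM, filterByExpr, Benjamini-Hochberg adjusted p under 0.05). DESeq2 1.42.0, other scalings and filters, matching by UMIs, left-out sections and the capture area as a block were alternatives. The SE is the log2 fold change over the root of F. Sections of an area are paired by the shared library per the labels; after the age means were removed they correlated across genes at 0.0047, 0.165, -0.222 and 0.210. On simulated counts with 100 genes changed, 19.4% of log2 changes of 1 and 84.4% of 2 were recovered for aged against young, and 96.9 and 100% for rim against interior.

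Members, gene lists and tests were chosen with earlier results of these data known. Besides members, the text names the 5 genes most like each, chromosome 19 neighbours within 50 kb, the 2 smallest p of each list and a fixed set of speckle and paraspeckle genes. Some genes under this rule are not reported here. No doublet caller was run on spots. Intervals cover sections, since spots are not replicates. Positions and sequences come from GENCODE M21 (mm10), joined by symbol.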

Additional observations from a re-analysis of the deposited data

Results flagged for a closer look

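Among 96 groups of 4 sections examined, 12 had 1 section far from the other 3 by Dixon's test, and chance gives about 1 in 20 such groups. The ratio of Malat1 in the 25% of spots with the fewest UMIs to the 25% with the most was 31.5 in aged section 2, against 4.89 to 8.47 in the other aged sections. In young section 3 this ratio was 4.70, against 1.10 to 1.42 in the other young sections. The log2 ratio of Malat1 on the rim over the interior was -0.71 in young section 1 and -0.11 to -0.07 in the other young sections.

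For Neat1, the log2 ratio in smooth muscle-high over other spots was -1.11 in aged section 4, against -0.27 to -0.15 in the other aged sections. It was -0.30 in young section 2, against -0.51 to -0.49 in the other young sections.

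Gm42418 stood at 137 CPM in young section 2, against 286 to 315 CPM in the other young sections. Its ratio of the shallowest to the deepest 25% of spots was 5.99 in young section 3, against 1.52 to 2.28 in the others. Its log2 ratio in smooth muscle-high over other spots was -0.64 in young section 1, against 0.27 to 0.38 in the others.

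Gm26917 stood at 75.7 CPM in young section 4, against 19.5 to 29.0 CPM in the other young sections. In aged section 3 it had a UMI in 47.9% of spots, against 30.4 to 33.2% in the other aged sections. In young section 2 its log2 ratio was 0.86 on the rim over the interior, against 0.26 to 0.34 in the others, and 1.05 in oocyte-high over other spots, against -0.23 to -0.05.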

How the results depend on the processing

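Of 690 values under alternatives for 71 results, 625 were counted as unchanged, and the cause of the other changes was not tested. For log2 fold changes of members within sections, unchanged means the same direction and side of the threshold. For counts of genes called it means within a fixed factor of the main count. For age differences, levels, shallow-to-deep ratios, Moran's I and correlations it means a move of less than 1 SD over sections. The sign changes of the Neat1 and Gm26917 age differences without area 3 are therefore among the 625. With the capture area as a replicate block, edgeR called 0 genes between the ages, and the log2 difference was 0.99 for Malat1, 3.2e-05 for Neat1, 0.71 for Gm42418 and 0.26 for Gm26917. DESeq2 called 5 genes. Without a filter on low counts 1686 genes were called on the rim and 2853 in surface epithelium-high spots. Matching by UMIs, which tested fewer genes, gave 1041 calls for oocyte-high, 1759 for corpus luteum-high, 1239 for stroma-high, 1095 for smooth muscle-high, 1051 for surface epithelium-high and 234 for macrophage-high spots. Without area 3 there were 650 calls on the rim and 510 in macrophage-high spots, and 1429 with the 20% of spots highest in macrophage genes. Leaving out 1 section gave 159 to 906 calls on the rim, 1358 to 2360 in oocyte-high and 500 to 1024 in macrophage-high spots.

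Calls gained without the filter were Malat1 (-0.44) and Neat1 (-0.30) on the rim and Malat1 (-0.72) and Neat1 (-0.52) in surface epithelium-high spots. Neat1 was also called after matching, on the rim (-0.33) and in surface epithelium-high spots (-0.52), and on the rim without area 3 (-0.29). Calls were lost after matching for Gm42418 in oocyte-high spots (0.31) and Gm26917 in corpus luteum-high spots (-0.39), and for the last also without area 3 (-0.37).

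Uncalled values changed sign. Malat1 in oocyte-high spots went to -0.11 with the highest 20%, -0.44 after matching and -0.10 without area 3, and in corpus luteum-high spots to 0.28, 0.26 and 0.036. After matching, Gm42418 was at 0.021 in granulosa-high, -0.14 in stroma-high, -0.28 in smooth muscle-high and -0.095 in macrophage-high spots, Malat1 at -0.18 in macrophage-high spots and Gm26917 at -0.021 in smooth muscle-high spots. Without the filter Gm42418 was at -0.025 in stroma-high, Gm26917 at -0.00037 in smooth muscle-high and Malat1 at -0.019 in macrophage-high spots.

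With 1 section left out, Malat1 ran from -0.25 to 0.36 in oocyte-high, -0.56 to 0.045 in corpus luteum-high and -0.13 to 0.16 in macrophage-high spots. Neat1 ran from -0.33 to -0.19 on the rim, -0.55 to -0.25 in surface epithelium-high and -0.012 to 0.14 in macrophage-high spots. Gm42418 ran from -0.23 to 0.054 in granulosa-high, -0.016 to 0.088 in stroma-high, 0.060 to 0.28 in smooth muscle-high and -0.023 to 0.22 in macrophage-high spots. Gm26917 ran from 0.31 to 0.61 in oocyte-high, -0.14 to 0.022 in stroma-high, -0.064 to 0.12 in smooth muscle-high and 0.21 to 0.43 in surface epithelium-high spots. Calls gained this way were Neat1 on the rim without aged section 3 (adjusted p = 0.0215) and in surface epithelium-high spots without aged section 1 (0.0372), Gm42418 in smooth muscle-high spots without young section 1 (0.0472), and Gm26917 in oocyte-high spots without young section 4 (0.0334) and in surface epithelium-high spots without aged section 3 (0.0416). Leaving area 3 out of the ratios between shallow and deep spots was chosen after seeing the data. Depth limits Gm26917 most, with 3165 UMIs over all sections.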
